A study of Mus musculus with 8 samples.

Results

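Mouse embryonic stem (ES) cells given 250 nM 4OHT (4-hydroxytamoxifen) for 8 h were compared with untreated cells of the same series. The comparison used the 4 arrays whose titles name 0 h or 8 h, out of 8 arrays in all, with 2 biological replicates in each group. Both groups grew in ES cell medium with LIF, the cytokine added to hold them undifferentiated, and with 250 nM PD173074, an inhibitor of FGF receptors, so the inhibitor was also present in the untreated cells. 4OHT binds a mutant oestrogen receptor domain and thereby activates proteins joined to it. The labels name no fused protein, cell line or clone, and do not say how the replicate cultures were kept apart, so the p-values cover only the spread among these arrays, which may be technical. The series title names Erk, and the comparison shows which transcripts differed 8 h after 4OHT.

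ERK is the last kinase of a cascade in which RAS activates RAF, RAF activates MEK and MEK activates ERK. Active ERK phosphorylates transcription factors that switch on immediate early genes within minutes, and later genes that include the pathway's own inhibitors, such as dual-specificity phosphatases and Sprouty proteins. In ES cells, FGF4 is the main signal upstream of ERK, and ERK activity is known to move cells away from the naive state.

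Values are log2 signals relative to the 75th percentile of each array, and a change is the 8 h mean minus the untreated mean ± the standard error of the limma fit. A gene was called when its Benjamini-Hochberg adjusted p was under 0.05. A call was said to hold when it was also made, in the same direction, with each of the 4 arrays left out in turn. Calls refer to this fit unless another is named, and a gene said to be called with the replicate block was not called in the fit without it. Members that were called without holding are counted and, apart from a few, are not named. The 2 untreated arrays had 37236 and 31428 spots well above background and the 8 h arrays 37789 and 30218, with the higher number in replicate 1 each time. Levels correlated at 0.993 between the untreated arrays, at 0.992 between the 8 h arrays and at 0.973 to 0.979 between groups.

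The ES cell label was checked against 9 marker genes, and all 9 were well above background on all 4 arrays. Their summed linear signal relative to the 75th percentile was 952 and 979 in untreated cells and 979 and 912 at 8 h. Dppa5a, the brightest of them, gave the largest part, with log2 signals of 8.73 and 8.76 before and 8.88 and 8.73 after. Nanog, also among them, fell by 2.59 ± 0.19. Of 8 fibroblast markers, which would mark feeder cells, Col3a1, Dcn, Lum and Postn were not above background on both arrays of any group and were not tested. The summed fibroblast signal was 3.58 and 2.38 in untreated cells and 37.3 and 17.6 at 8 h. Thy1, which also marks other cells, gave nearly all of that difference, with log2 signals of 1.63 and 0.70 in untreated cells and 5.21 and 4.11 at 8 h. Its change of 3.49 ± 0.60 was called (limma, adjusted p = 0.0129), but not without untreated replicate 2 (0.0666) or 8 h replicate 1 (0.0591). The collagens Col1a1 and Col1a2 changed by -0.27 ± 0.11 and -0.36 ± 0.24 and were not called. Trophoblast markers summed to 15.9 and 18.4 in untreated cells and 36.2 and 42.3 at 8 h. Most of that difference came from Krt18, with log2 signals of 2.90 and 3.33 in untreated cells and 4.72 and 4.91 at 8 h. Streak markers summed to 0.99 and 1.06 and then 4.31 and 3.43. Primitive endoderm markers followed the replicate number instead, at 69.4 in replicate 1 and 37.4 in replicate 2 of untreated cells and 64.0 and 30.4 at 8 h.

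Promoters of 3 genes of the immediate early and feedback groups described next are shown because they hold a CArG box, the site bound by serum response factor together with ERK-phosphorylated partner proteins. Among the held rises of the phosphatase, Sprouty, EGR, AP-1 and other immediate early lists, 24 genes had a promoter entry, and 3 of them (12.5%) held a CArG box within 250 bases before to 50 after a start. The share was 1.69% of 11542 tested genes with an entry, 1.63% of all 32851 promoter windows and 3.23% of 31 tested members of the same lists that were not held rises. Ccn1 and Ccn2, also tested members that were not held rises, are missing from that share, because the search used their older symbols. Over all genes with an entry whose call held and was at least 2-fold, the share was 2.65% of the rises (10 genes) and 3.11% of the falls. Both strands were searched, and a match is a description of the letters, not a site in use. The 250 bases before the start are printed 5′ to 3′ from RefSeq (GRCm38.p6), with the CArG boxes in capitals. Dusp5 (chr19:53528895-53529144, plus strand) has 2 adjoining boxes that begin 82 and 72 bases before the start. Egr2 has several annotated starts, and the window at chr10:67537619-67537868 (plus strand) has a box 72 bases before its start. Zfp36 (chr7:28379229-28379478, minus strand) has a box 58 bases before its start.
Dusp5: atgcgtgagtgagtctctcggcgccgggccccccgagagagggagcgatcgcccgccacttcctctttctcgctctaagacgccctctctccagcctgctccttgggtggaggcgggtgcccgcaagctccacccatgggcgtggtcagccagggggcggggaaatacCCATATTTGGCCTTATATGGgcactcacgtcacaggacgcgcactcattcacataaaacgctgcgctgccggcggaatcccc
Egr2: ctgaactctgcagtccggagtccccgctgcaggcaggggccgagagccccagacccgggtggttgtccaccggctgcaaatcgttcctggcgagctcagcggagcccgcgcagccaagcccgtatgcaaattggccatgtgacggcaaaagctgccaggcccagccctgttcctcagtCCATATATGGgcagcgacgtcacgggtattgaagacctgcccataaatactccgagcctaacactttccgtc
Zfp36: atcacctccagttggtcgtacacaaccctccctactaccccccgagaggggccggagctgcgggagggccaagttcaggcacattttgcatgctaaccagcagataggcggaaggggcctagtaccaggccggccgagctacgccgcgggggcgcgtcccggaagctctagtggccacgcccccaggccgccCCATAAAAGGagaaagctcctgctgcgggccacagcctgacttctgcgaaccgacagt

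Of 7 other motifs searched on both strands, CCGGAAGT, the core bound by ETS factors, occurred in 8.04% of tested genes with a promoter entry. It occurred in 2.65% of the 378 held rises of at least 2-fold with an entry and in 0.311% of the 322 held falls. TGANTCA, the AP-1 core, occurred in 10.8% of those rises, 6.21% of those falls and 6.46% of tested genes. GCGTGGGCG, the EGR core, occurred in 2.65%, 2.17% and 1.30%. The other motifs, TGACGTCA, CACGTG, ATGCAAAT and CTTTGAT, occurred in 2.12%, 9.79%, 3.17% and 2.91% of the rises, in that order, in 2.17%, 9.63%, 2.80% and 3.73% of the falls and in 3.39%, 11.3%, 1.69% and 3.09% of tested genes. In the 24 immediate early and feedback genes CACGTG occurred in 7 (29.2%), TGANTCA, TGACGTCA and GCGTGGGCG in 2 each, ATGCAAAT in 1 and CCGGAAGT and CTTTGAT in 0. These shares are counts of letters and their differences were not tested.

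Of 22686 genes and features tested, 2329 (10.3%) rose and 2602 (11.5%) fell at 8 h, which together is 21.7%. Calls held for 898 rises (3.96%) and 856 falls (3.77%), and 608 held rises (2.68% of all tested) and 497 held falls (2.19%) were at least 2-fold. All 1754 held calls (7.73%) were also made with the replicate number as a block, and their groups did not overlap on any array, as was true of 63.7% of everything tested. With the block 3251 rises (14.3%) and 3994 falls (17.6%) were called. Among the 14488 tested genes with a symbol, from which the gene lists were drawn, 12.8% rose (5.18% held) and 14.5% fell (4.98% held). Counts called in the lists below are to be read against these shares. The counts rested on each of the 4 arrays: rises numbered 1341 without untreated replicate 1, 1482 without untreated replicate 2, 1260 without 8 h replicate 1 and 1091 without 8 h replicate 2, and falls 1511, 1350, 1324 and 1177 in the same order. The median change over everything tested was -0.04, and centring each array on its median instead raised it by 0.14 to 0.10. Rises made up 47.2% of calls under the 75th percentile and 66.8% under that centring. Of 1754 held genes and features, 423 had a further kept probe, which was called the same way for 321 and the opposite way for 2.

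**Figure D1:**
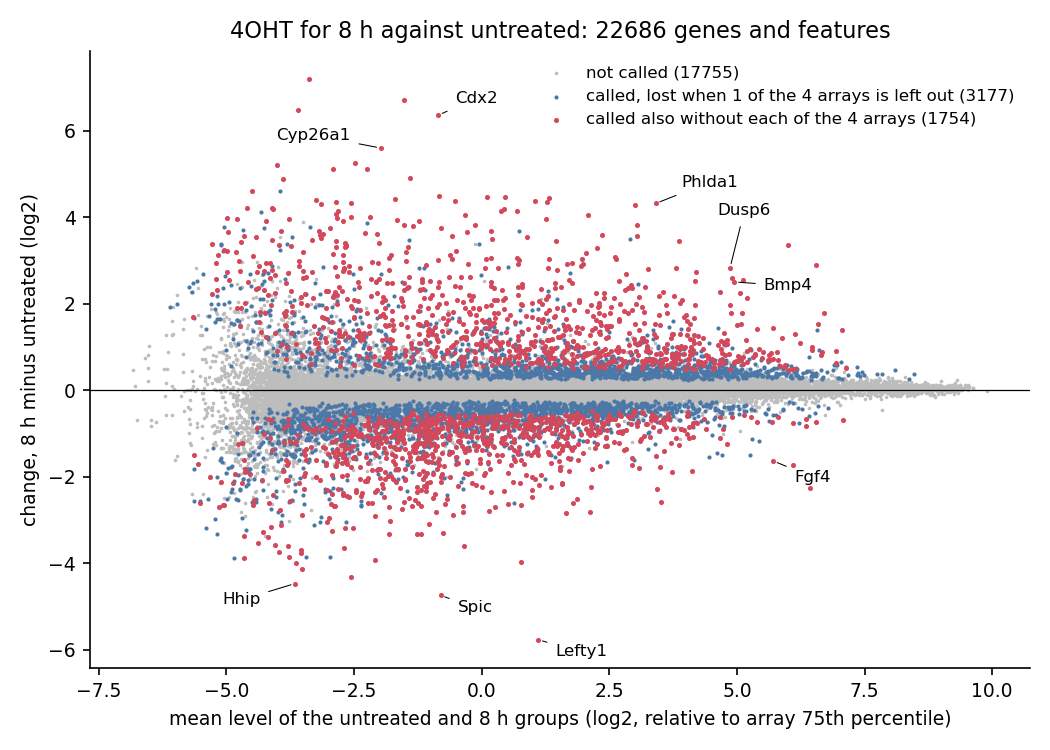
Change (8 h minus untreated, log2) of each of the 22686 genes and features against the mean level of both groups (log2, relative to the array's 75th percentile), with grey points not called, blue points called in the full fit but lost when 1 of the 4 arrays was left out, and red points called under each omission. The largest changes lie at low and middle levels, and Phlda1, Dusp6, Bmp4 and Fgf4 are among the brighter genes called.

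**Figure D2:**
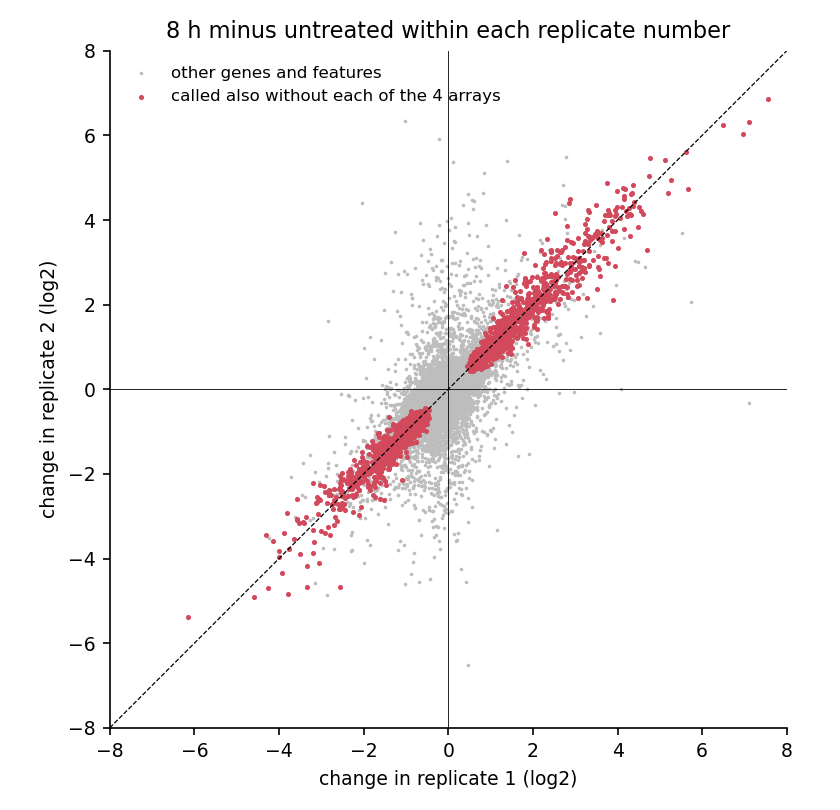
Change from untreated to 8 h in replicate 1 (x axis) and replicate 2 (y axis), both in log2, for every gene or feature tested, with the held calls in red and the dashed line marking equal changes. All 1754 held calls lie in the quadrants where both replicates moved the same way. So do 4930 of all 4931 calls, and the rule for holding leaves little room for another outcome.

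Phosphatases that remove phosphate from MAP kinases were among the genes that rose. Of 12 tested, 6 rose and all 6 held, and 2 fell, of which 1 held. Their median change was 1.14, against -0.04 over everything tested. Dusp4, a nuclear phosphatase of ERK, measured -1.36 and -1.38 in untreated cells and 2.62 and 2.92 at 8 h, a change of 4.14 ± 0.21 or 17.6-fold (limma, adjusted p = 0.000346). Dusp6, the cytoplasmic phosphatase specific for ERK, went from 3.43 and 3.46 to 6.32 and 6.26, a rise of 2.84 ± 0.09. Dusp5, another nuclear ERK phosphatase, went from -4.59 and -4.78 to -0.71 and -0.81, and was well above background on 1 of the 2 untreated arrays. The 8 h arrays lay above the untreated arrays for each of these genes, as for every held rise. Dusp2 rose by 3.04 ± 0.28, the tyrosine phosphatase Ptpn7 by 2.62 ± 0.14 (1 of 2 untreated arrays well above background) and Dusp1, which acts on several MAP kinases, by 1.87 ± 0.10. Dusp16, which acts on the stress kinases JNK and p38, fell by 0.77 ± 0.07. Dusp9, an ERK phosphatase of ES cells, changed by -0.37 ± 0.21 and was not called (adjusted p = 0.274), and was called lower with the replicate block (0.0196). Dusp14 changed by -0.94 ± 0.27 (0.0565), called with the block (0.0136). With the block 4 members of the list fell.

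Among inhibitors that act above ERK more genes rose than fell. Of 15 Sprouty, Spred and related genes tested, 10 rose, of which 7 held, and 2 fell, of which 1 held, with a median change of 0.89. Spry4, which blocks RAS activation by receptors, measured -0.72 and -0.82 in untreated cells and 2.37 and 2.10 at 8 h, a rise of 3.01 ± 0.16 or 8.06-fold (limma, adjusted p = 0.000388). Spry2 rose by 1.70 ± 0.10 and Spry1 by 1.42 ± 0.19. Spred3 rose by 2.24 ± 0.22, with 1 of 2 untreated arrays well above background, and Spred1 by 1.92 ± 0.07. These Sprouty and Spred genes are all held rises, and no held call had overlapping groups. Spred2 changed by 0.36 ± 0.09 (limma, adjusted p = 0.0448), a call that did not hold, and Spry3 was not tested. Lrig3, a transmembrane protein related to Lrig1, which lowers receptor levels, fell by 1.79 ± 0.11, from 3.84 and 4.11 to 2.17 and 2.21. Errfi1, an inhibitor of the EGF receptor, changed by 0.89 ± 0.29 and was not called (adjusted p = 0.0848), though it was called higher with the replicate block (0.0027). Pebp1, a RAF inhibitor, changed by 0.11 ± 0.08 and was not called.

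**Figure D3:**
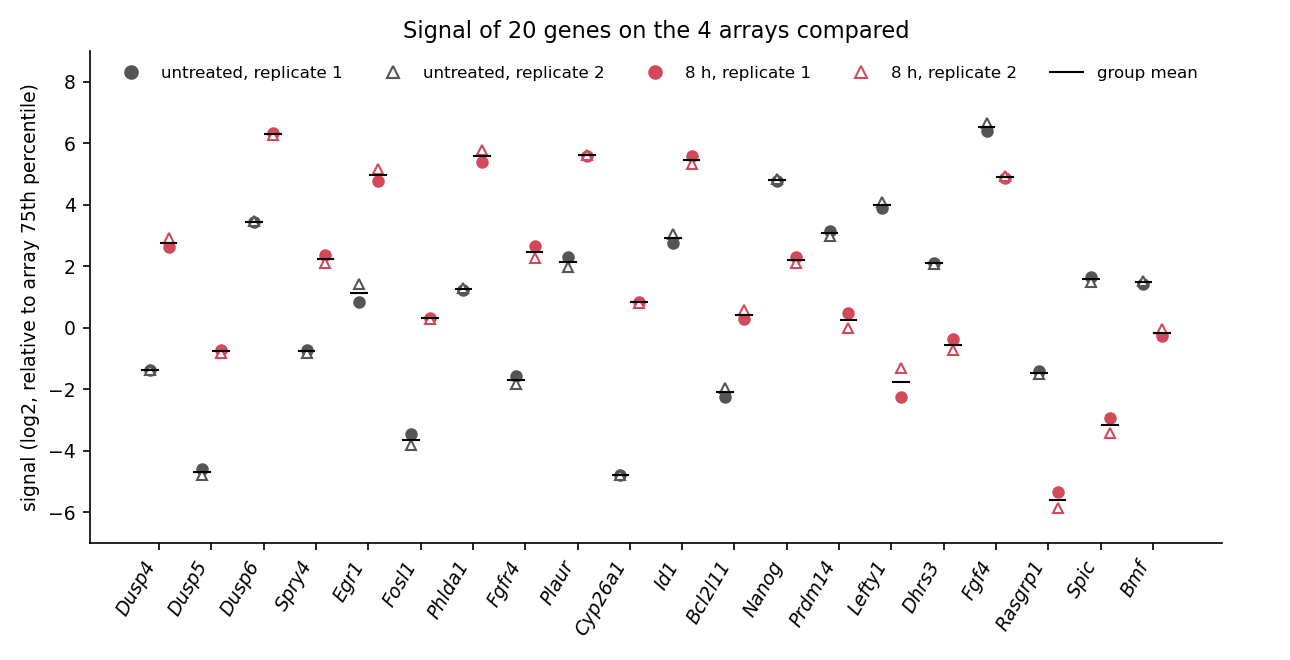
Signal (log2, relative to the array's 75th percentile) of 20 genes on the 2 untreated arrays (grey) and the 2 arrays at 8 h (red), with circles for replicate 1, triangles for replicate 2 and bars for group means. All genes shown are held calls, none of which had overlapping groups. The 8 h arrays are the higher ones from Dusp4 to Bcl2l11 and the lower ones from Nanog to Bmf.

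Of the kinases of the cascade itself 5.88% rose and 17.65% fell, against 12.8% and 14.5% of tested genes with a symbol. Of 17 RAF, MEK, ERK and RSK genes tested, 1 rose, which did not hold, and 3 fell, of which 1 held, and the median change was 0.01. The 1 rise was Braf, named here because the count is small, with a change of 1.09 ± 0.18 that was lost without untreated replicate 1 (limma, adjusted p = 0.0634), untreated replicate 2 (0.0501) or 8 h replicate 2 (0.0676). With the replicate block 2 members rose and 4 fell. Rps6ka4, a nuclear kinase that ERK and p38 activate, fell by 1.03 ± 0.10. Rps6ka1, which encodes RSK1, changed by 0.13 ± 0.06 and was not called.

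RAS regulators changed in both directions. Of 24 exchange factors, RAS proteins and GTPase activators tested, 3 rose (2 held) and 5 fell (4 held), with a median of 0.01. The shares were 12.5% and 20.8%, against 12.8% and 14.5% of tested genes with a symbol. The exchange factor Rasgrp1 went from -1.40 and -1.51 to -5.34 and -5.85 (change -4.14 ± 0.34, limma adjusted p = 0.00129), and Rasgef1a from -0.54 and -0.25 to -4.32 and -5.09 (-4.31 ± 0.35). Both were well above background on 1 of 2 arrays at 8 h. Rasgrp3, of the same family as Rasgrp1, went the other way, from -4.08 and -3.94 to -1.75 and -1.73, a rise of 2.27 ± 0.09. The RAS-related gene Rras2 rose by 1.36 ± 0.10. The GTPase activators Rasa4 and Rasal1, which switch RAS off, fell by 1.61 ± 0.17 and 0.90 ± 0.12, and Rasa2, counted among the related inhibitors, rose by 1.54 ± 0.17. Dab2ip and Rasgrp2 changed by 0.28 ± 0.14 and 0.27 ± 0.25 and were not called.

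Of 19 FGF ligands, receptors and adaptors tested, 2 rose (1 held) and 4 fell (3 held), with a median of -0.19. The shares were 10.53% and 21.05%, against 12.8% and 14.5% of tested genes with a symbol. Fgfr4, a receptor for FGFs, measured -1.57 and -1.82 in untreated cells and 2.66 and 2.26 at 8 h, a rise of 4.16 ± 0.22 or 17.8-fold (limma, adjusted p = 0.000405). Fgfr1, the main FGF receptor of ES cells, fell from 3.72 and 3.82 to 2.93 and 2.92, by 0.84 ± 0.07. Fgf4 fell from 6.40 and 6.67 to 4.87 and 4.92, by 1.64 ± 0.10, and the decoy receptor Fgfrl1 by 0.56 ± 0.07. The ligand and its main receptor were therefore lower at 8 h while Fgfr4 was higher, in the presence of the receptor inhibitor in both groups. The adaptor Frs2 changed by 0.11 ± 0.07 and Fgfr3 by 0.02 ± 0.33, and neither was called. Of 10 EGF receptor and ligand genes, 2 rose (1 held) and 2 fell (0 held), or 3 and 4 with the replicate block. Hbegf, a ligand of the EGF receptor, rose by 2.00 ± 0.15, from 2.13 and 1.94 to 4.14 and 3.93. Erbb2 changed by -0.44 ± 0.13 and was called lower with the block (adjusted p = 0.0179).

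Several immediate early transcription factors were higher 8 h after 4OHT. Of 5 EGR factors and NAB corepressors tested 4 rose and all 4 held, with a median of 2.09. Egr1 went from 0.83 and 1.42 to 4.76 and 5.15, a rise of 3.83 ± 0.29. Egr2 was not well above background on either untreated array and was at least 6.09-fold higher at 8 h, a bound taken against the mean over the untreated arrays of the higher of its own signal and the lowest signal well above background (limma, adjusted p = 0.00525). Nab1 and Nab2, corepressors that EGR factors induce and that bind them, rose by 2.09 ± 0.10 and 1.74 ± 0.14. Egr4 changed by 0.48 ± 0.21 and was not called. Of 12 AP-1 genes 7 rose (6 held) and 0 fell by limma, with 1 lower under the replicate block and 2 lower at an unadjusted p under 0.05, and their median was 1.21. Fosl2 went from -4.31 and -5.16 to -0.31 and -0.49 (4.34 ± 0.30, 1 of 2 untreated arrays well above background) and Fosl1 from -3.45 and -3.82 to 0.32 and 0.29 (3.94 ± 0.15). Fos rose by 2.52 ± 0.33 and Junb by 1.94 ± 0.22. Members of the family differed, since Jund, at 4.18 and 3.83 before and 3.62 and 3.70 after, changed by -0.34 ± 0.13 and was not called. Mafg changed by 0.13 ± 0.09 and was not called either.

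Of 25 other immediate early genes tested, 15 rose (10 held) and 1 fell (0 held), or 17 and 3 with the replicate block, with a median of 0.88. Phlda1 rose 20.0-fold, from 1.23 and 1.28 to 5.39 and 5.77 (4.33 ± 0.24, limma adjusted p = 0.000469). Arc, best known as an activity-induced gene of neurons, rose by 2.83 ± 0.11, the small GTPase Gem by 2.57 ± 0.10 and the nuclear protein Csrnp1 by 2.10 ± 0.16. The 1 fall was Rgs16, named because the count is small, at -1.62 ± 0.33 (0.0212), a call lost without untreated replicate 1 (0.0736) or untreated replicate 2 (0.0982). Mcl1, an inhibitor of apoptosis, and Sgk1, a kinase, changed by 0.22 ± 0.09 and 0.09 ± 0.18 and were not called.

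The Zfp36 family, which binds AU-rich elements and speeds the decay of many immediate early transcripts, was higher. Of 17 genes of deadenylation and AU-rich element binding, 4 rose, all held, and 1 fell, which did not hold, or 2 with the replicate block. The 4 were Noct, a protein of the deadenylase family, and the Zfp36 family, which recruits deadenylases. Noct went from 4.14 and 4.11 to 6.35 and 6.16 (2.13 ± 0.10, limma adjusted p = 0.000329) and Zfp36l2 from 2.85 and 2.88 to 4.92 and 4.86 (2.02 ± 0.09). Zfp36 rose by 1.86 ± 0.19 and Zfp36l1 by 1.31 ± 0.15. The median of the list was 0.07, and Hnrnpd changed by 0.17 ± 0.11 without being called.

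Of 17 ETS factors 3 rose (2 held) and 4 fell (2 held), with a median of -0.00. Etv4, which FGF and ERK signalling induce, rose by 1.79 ± 0.08, and Etv6, a repressor, by 1.35 ± 0.11. Etv5, of the same subfamily as Etv4, measured 6.50 and 6.67 in untreated cells and 6.55 and 6.56 at 8 h, a change of -0.03 ± 0.08 that was not called (limma, adjusted p = 0.843). Spic fell 26.8-fold, from 1.66 and 1.48 to -2.93 and -3.42, and Elf3, an epithelial factor, fell 7.07-fold, from 0.74 and 0.31 to -2.30 and -2.30. Elk1, a direct ERK substrate, changed by -0.00 ± 0.08 and was not called. Of 10 MYC network genes, Myc alone rose in the fit without a block, from 1.70 and 1.67 to 3.97 and 4.14 (2.37 ± 0.15), and 3 rose with the replicate block. Mycl, its relative, fell by 2.35 ± 0.24 and Mxd3, which competes with MYC for MAX, by 0.90 ± 0.12. Of 18 KLF and SP factors 6 rose (3 held) and 4 fell (1 held). Sp5, a WNT-induced factor, rose by 3.49 ± 0.10, Klf6 by 1.14 ± 0.13 and Klf5 by 0.96 ± 0.14, and Klf13 fell by 0.66 ± 0.09. Klf3 and Klf9 changed by -0.25 ± 0.14 and -0.02 ± 0.11 and were not called.

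Pluripotency genes changed in both directions. Of 19 naive factors 4 rose (2 held) and 8 fell (3 held), or 4 and 12 with the replicate block. The median was -0.78, or -0.64 with arrays centred on their median. Prdm14, a repressor that guards the naive state, fell 7.15-fold, from 3.15 and 2.99 to 0.49 and -0.02, and Nanog fell by 2.59 ± 0.19. Klf4 and Klf2 changed by -1.46 ± 0.32 (limma, adjusted p = 0.0281) and -1.18 ± 0.23 (0.0198), and each call was lost when any of the 4 arrays was left out, with adjusted p from 0.0561 to 0.129 for Klf4 and from 0.0571 to 0.0994 for Klf2. Esrrb changed by -0.58 ± 0.23 and was called lower with the replicate block (0.0417). Zfp42 and Tdh changed by -0.26 ± 0.14 and 0.27 ± 0.14 and were not called. Bmp4, on the naive list because it supports self-renewal with LIF, rose by 2.51 ± 0.18. Of 19 general pluripotency genes 5 rose (4 held) and 2 fell (1 held), with 8 rises under the block. Dppa4 and Utf1 rose by 0.95 ± 0.08 and 0.93 ± 0.08. Pou5f1 measured 6.57 and 6.64 before and 6.80 and 6.81 after, and its change of 0.20 ± 0.10 was not called. Sox2 changed by 0.28 ± 0.08 and was not called. Of 19 formative and primed genes 8 rose (3 held) and 1 fell (0 held), or 12 and 4 with the block. Pou3f1, also called Oct6, rose 9.83-fold, from 0.46 and 0.78 to 3.78 and 4.05, Sox4 by 1.44 ± 0.14 and Foxd3 by 0.82 ± 0.11, while Dnmt3b changed by 0.57 ± 0.18 and was called with the block (0.0384).

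**Figure D4:**
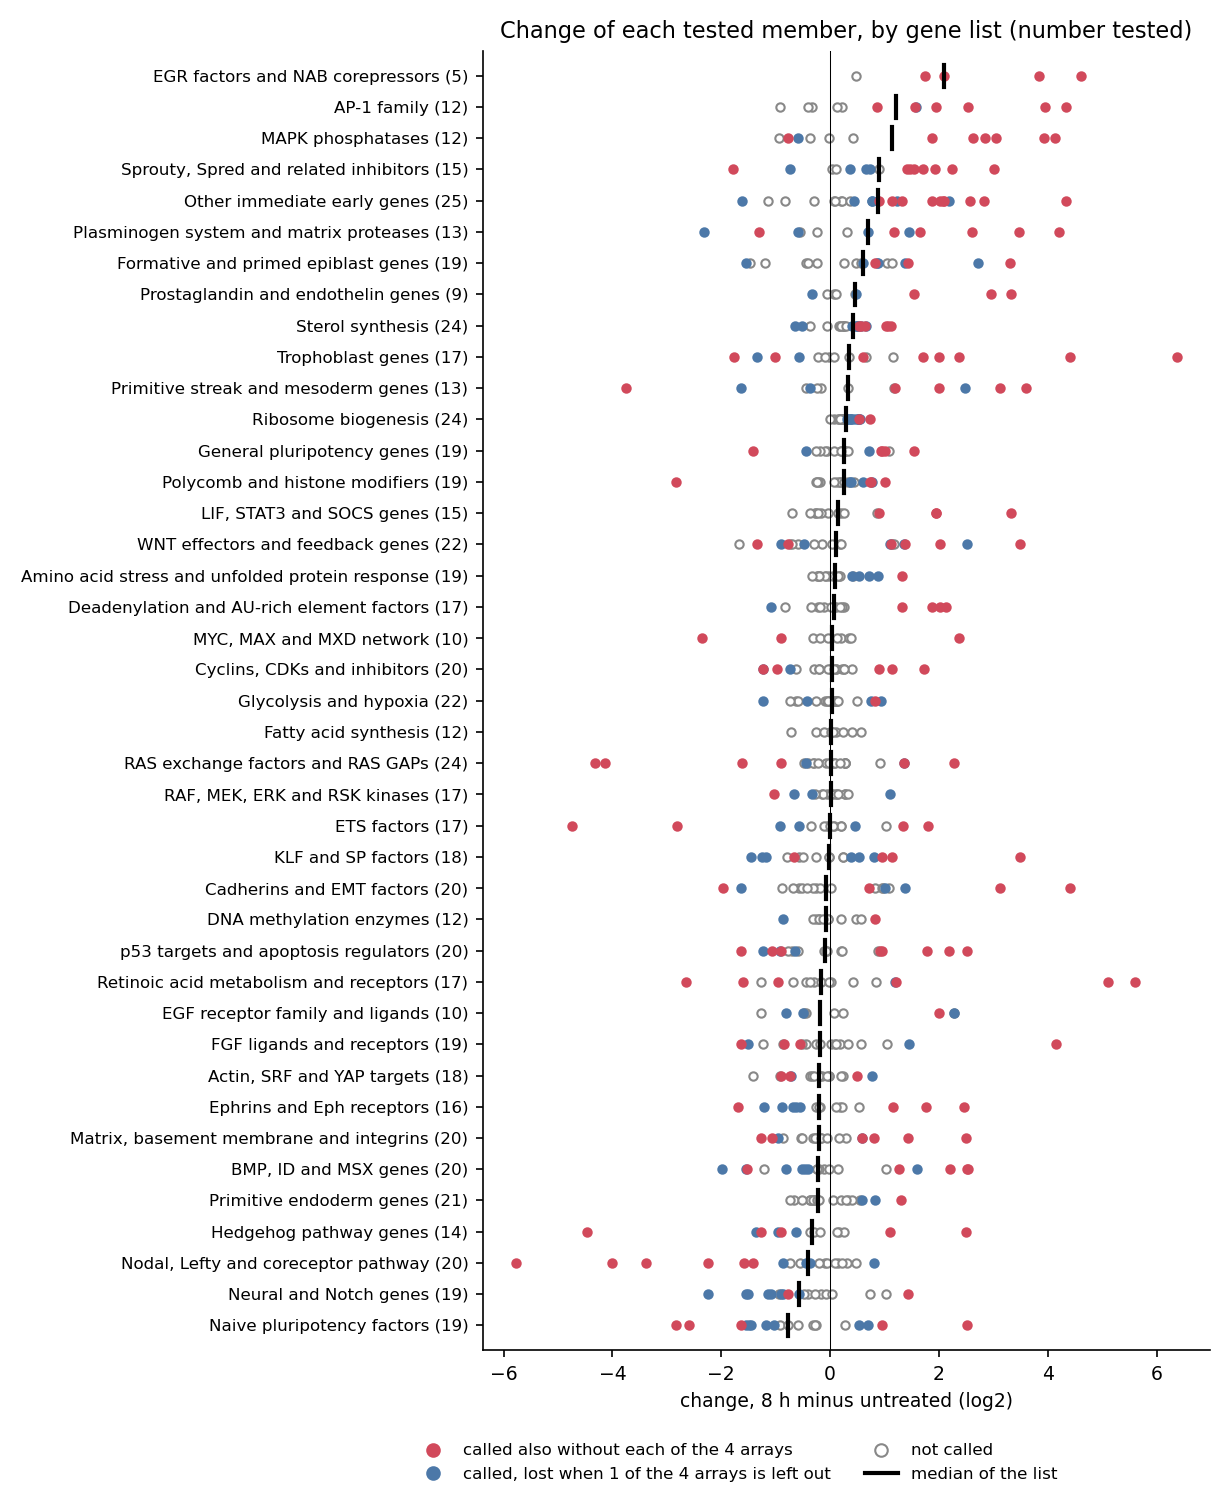
Change (8 h minus untreated, log2) of each tested member of 41 gene lists, ordered by the list's median (black bar), with red points for held calls, blue points for calls lost when 1 of the 4 arrays was left out and open points not called. The lists of EGR, AP-1, MAPK phosphatase, Sprouty and immediate early genes have the highest medians, and most lists hold members on both sides of 0.

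LIF was in the medium of both groups. Of 15 genes of LIF and STAT3 signalling tested 4 rose, all held, and 0 fell by limma. Under the replicate block 5 were higher and 1 lower, and 0 were lower at an unadjusted p under 0.05. Socs5, an inhibitor of cytokine signalling, rose 10.0-fold, from -2.90 and -3.32 to 0.31 and 0.13 (limma, adjusted p = 0.000393), and Socs2 rose by 1.94 ± 0.10. Socs3, the STAT3-induced inhibitor, measured 5.29 and 5.26 before and 5.10 and 4.95 after, and its change of -0.25 ± 0.10 was not called. Bcl3 changed by 0.87 ± 0.29 and was called with the block (0.00123).

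More genes of the Nodal pathway fell than rose. Of 20 tested, 1 rose (0 held) and 9 fell (6 held), or 3 rose and 11 fell with the replicate block, and the median was -0.41. Lefty1, a secreted Nodal inhibitor that Nodal induces, measured 3.90 and 4.09 in untreated cells and -2.25 and -1.30 at 8 h, a fall of 54.6-fold. Lefty2 fell 4.75-fold, from 3.17 and 3.36 to 1.07 and 0.97 (limma, adjusted p = 0.000266), and Nodal itself by 1.41 ± 0.12. The coreceptor Cfc1 changed by -4.01 ± 0.42 and was well above background on 1 of 2 arrays at 8 h. Tdgf1, the other coreceptor, changed by -0.10 ± 0.10 and the convertase Pcsk6 by -0.21 ± 0.21, and neither was called. Of 20 BMP, ID and MSX genes 5 rose (4 held) and 7 fell (1 held), with a median of -0.22. Id1, a direct BMP target, went from 2.75 and 3.06 to 5.56 and 5.32, a rise of 2.53 ± 0.17, and Msx1 rose by 2.21 ± 0.27. Bmp8b rose by 1.27 ± 0.15 and Id4 fell by 1.53 ± 0.22. Msx1 thus rose with Id1, while Msx2, Id2, Id3 and Smad6, named after their values were seen, were not called higher. Members named in this way give no measure of the pathway. Msx2 fell by 0.40 ± 0.08 (limma, adjusted p = 0.0181), a call lost without any 1 of the 4 arrays, and Id2 changed by -1.22 ± 0.33 (0.0506) and was called lower with the block (0.0154). Id3 and Smad6, at -0.20 ± 0.13 and -0.24 ± 0.23, were not called. The receptor Bmpr1a and the effector Smad5 changed by -0.12 ± 0.08 and 0.14 ± 0.13 and were not called.

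Of 22 WNT effectors and feedback genes 7 rose (4 held) and 4 fell (2 held), with a median of 0.11. The ligand Wnt10a rose by 2.02 ± 0.19, the receptor Fzd7 by 1.38 ± 0.07 and the nuclear effector Tcf7 by 1.12 ± 0.12. Tcf7l1, the TCF that represses pluripotency genes, went the other way, from 2.49 and 2.35 to 0.99 and 1.17 (limma, adjusted p = 0.00141), and Notum, a secreted WNT inhibitor, fell by 0.78 ± 0.07. Ctnnb1 changed by 0.19 ± 0.08 and was not called. Lef1 overlapped between the groups, at 0.72 and 2.18 before and 2.03 and 3.14 after, and was called higher with the replicate block (0.00359). Of 14 Hedgehog pathway genes 2 rose, both held, and 6 fell (3 held), with a median of -0.33. The ligand Dhh rose by 2.50 ± 0.13. Hhip, which traps Hedgehog ligands, was at least 10.9-fold lower at 8 h, where it was well above background on neither array, and Ptch1 and the coreceptor Cdon fell by 1.27 ± 0.14 and 0.90 ± 0.12. Gli1 changed by 0.25 ± 0.12 and was called with the block (0.0266).

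Genes of retinoic acid metabolism changed in both directions. Of 17 tested 4 rose (3 held) and 3 fell, all held, or 7 with the replicate block, and the median was -0.16. Cyp26a1, which degrades retinoic acid, measured -4.77 and -4.79 in untreated cells and 0.83 and 0.81 at 8 h, a rise of 5.61 ± 0.10 or 48.7-fold (limma, adjusted p = 5.41e-05). Aldh1a3, which makes retinoic acid, went from -4.30 and -5.31 to 0.47 and 0.15, a rise of 5.11 ± 0.33. Each was well above background on 1 of 2 untreated arrays. Dhrs3, which lowers the supply of retinaldehyde, fell from 2.12 and 2.09 to -0.38 and -0.72, by 2.65 ± 0.12. The receptor Rarg rose by 1.22 ± 0.09, Rarb fell by 1.60 ± 0.20 (1 of 2 arrays at 8 h well above background) and the binding protein Crabp2 fell by 0.97 ± 0.13. Aldh1a3 and Cyp26a1, which make and break down retinoic acid, were thus both higher, but other such enzymes were not called higher. Aldh1a2 changed by -0.68 ± 0.25 and was called lower with the replicate block (limma, adjusted p = 0.00971). Aldh1a1, Rdh10 and Cyp26b1 were not called. Rara changed by -0.38 ± 0.13 and was called with the block (0.0148), and Rxrb changed by -0.16 ± 0.08 and was not called.

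Some lineage genes rose from levels at or near background. Of 17 trophoblast genes 6 rose, all held, and 4 fell (2 held). Cdx2 went from -4.41 and -3.65 to 2.07 and 2.60, a rise of 6.37 ± 0.43. Hand1 was at least 13.3-fold higher at 8 h, with neither untreated array well above background, Tead4 rose by 2.38 ± 0.26 and Eomes by 2.00 ± 0.12. Tfap2c and Esx1 fell by 1.76 ± 0.24 and 1.02 ± 0.13, and Krt8 changed by -0.22 ± 0.20 and was not called. Of 13 streak and mesoderm genes tested 5 rose (4 held) and 3 fell (1 held), and another 6 were not tested. T, also called brachyury, rose by 3.59 ± 0.25 (1 of 2 untreated arrays well above background), Evx1 by 3.12 ± 0.23 and Mesp2 by 1.19 ± 0.14, while Gsc, an organizer gene, fell by 3.75 ± 0.36 (1 of 2 arrays at 8 h well above background). Cdx1 changed by 1.17 ± 0.51 and was called with the replicate block (limma, adjusted p = 0.00284).

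Of 21 primitive endoderm genes 3 rose (1 held) and 0 fell by limma, with 1 lower at an unadjusted p under 0.05 and 5 higher and 5 lower under the replicate block. Rhox5, the held rise, went from 2.85 and 2.61 to 4.08 and 3.98, and is also expressed outside this lineage. The defining markers differed between replicates, as given for the marker sum, with a median difference of 1.46 between replicates 1 and 2. Lama1, for example, measured 5.94 and 5.08 before and 5.77 and 4.71 after, a change of -0.27 ± 0.58 called with the block (limma, adjusted p = 0.0471). Of 19 neural and Notch genes 1 rose, which held, and 9 fell (1 held), with 2 rises under the block and a median of -0.57. Nes rose by 1.43 ± 0.12 and the Notch ligand Dll3 fell by 0.77 ± 0.11. Hes6 and Hes7 changed by -0.27 ± 0.09 and -0.08 ± 0.10 and were not called.

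Genes of adhesion and movement gave mixed results. Of 20 cadherins and factors of the epithelial to mesenchymal transition, 5 rose (3 held) and 2 fell (1 held), or 8 and 7 with the replicate block. The median of -0.08 became 0.05 when arrays were centred on their median. Snai3 went from -4.22 and -3.61 to 0.29 and 0.71, a rise of 4.42 ± 0.31 (limma, adjusted p = 0.000865), and Twist1 from -3.61 and -3.07 to -0.29 and -0.13, a rise of 3.13 ± 0.23. Snai2, of the same family as Snai3, fell from -1.72 and -1.77 to -3.47 and -3.97, a change of -1.98 ± 0.25. Vim rose by 0.72 ± 0.07, and Cdh1, the epithelial cadherin, changed by -0.25 ± 0.18 and was not called. Of 13 genes of the plasminogen system and matrix proteases 7 rose (5 held) and 3 fell (1 held), with a median of 0.70. Plaur, the urokinase receptor, rose by 3.46 ± 0.12, from 2.29 and 1.99 to 5.58 and 5.62, Adamts1 rose by 2.61 ± 0.20 and Adam19 by 1.66 ± 0.20. Mmp9, a gelatinase, was at least 7.04-fold higher at 8 h, with neither untreated array well above background. Mmp11 fell by 1.30 ± 0.16, and Mmp14 and Timp3 changed by 0.31 ± 0.20 and -0.55 ± 0.30 and were not called.

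Of 9 prostaglandin and endothelin genes tested 4 rose (3 held) and 1 fell (0 held). Edn2, an endothelin, rose 10.0-fold, from -4.30 and -4.39 to -1.24 and -0.81 (1 of 2 untreated arrays well above background). Ptgs2, the inducible cyclooxygenase, rose by 2.95 ± 0.39 (limma, adjusted p = 0.00539) and Ptgs1, its constitutive relative, by 1.54 ± 0.15. Ptges, which acts after them, changed by -0.05 ± 0.13 and was not called. Of 16 ephrins and Eph receptors 3 rose, all held, and 6 fell (1 held). The receptors Epha1 and Epha2 rose by 2.47 ± 0.31 and 1.15 ± 0.11, the ligand Efna5 rose by 1.77 ± 0.26 and the ligand Efna1 fell by 1.70 ± 0.17. Ephb3 changed by 0.22 ± 0.07 and was called with the replicate block (0.0416), and Epha5 changed by 0.18 ± 0.09 and was not called.

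Of 20 matrix and integrin genes 5 rose (4 held) and 3 fell (2 held), or 6 and 6 with the replicate block. The laminin receptor subunits Itga3, Itgb1 and Itga6 rose by 2.49 ± 0.17, 1.43 ± 0.11 and 0.58 ± 0.07, and the basement membrane gene Nid2 by 0.80 ± 0.08. Lama5, a laminin chain, fell by 1.27 ± 0.12, from 4.54 and 4.46 to 3.10 and 3.36, and Spp1 changed by -1.08 ± 0.07. Fn1 changed by -0.51 ± 0.14 and Sparc by 0.30 ± 0.13, and both were called with the block (limma, adjusted p = 0.00938 and 0.0404). Of 18 genes of actin, SRF and YAP, 2 rose (1 held) and 3 fell (2 held), or 3 and 6 with the block, with a median of -0.20. Tagln2 rose by 0.49 ± 0.06, and Amotl2 and Cnn2 fell by 0.89 ± 0.09 and 0.73 ± 0.08. Actb measured 9.12 and 9.27 before and 9.44 and 9.44 after, and Actb and Actg1, with changes of 0.24 ± 0.08 and -0.01 ± 0.10, were not called.

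DNA methylation enzymes rose in 8.33% and fell in 8.33% of tested members, and Polycomb genes and histone modifiers in 36.8% and 5.26%. Of tested genes with a symbol 12.8% rose and 14.5% fell. Of 12 DNA methylation enzymes 1 rose, which held, and 1 fell, which did not, with 3 rises under the replicate block. Dnmt3l, the catalytically inactive partner of the de novo methyltransferases, rose by 0.82 ± 0.07, from 6.19 and 6.28 to 7.03 and 7.06 (limma, adjusted p = 0.00155). Uhrf1 and Mbd3 changed by -0.21 ± 0.13 and -0.13 ± 0.11 and were not called. Of 19 Polycomb genes and histone modifiers 7 rose (3 held) and 1 fell, which held and was Prdm14. Jarid2 rose by 1.01 ± 0.07, Phf19 by 0.75 ± 0.10 and Kdm6b, a demethylase of histone H3, by 0.74 ± 0.10. Epop changed by 0.18 ± 0.07 and was not called.

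Among metabolic genes, 13 of 24 sterol synthesis genes rose (6 held) and 2 fell (0 held), with a median of 0.41. Msmo1 rose by 1.02 ± 0.10 and Idi1 by 0.64 ± 0.08, while Fdps and Pmvk changed by 0.25 ± 0.16 and 0.24 ± 0.22 and were not called. Of 12 fatty acid synthesis genes 0 rose and 0 fell by limma, and under the replicate block, as at an unadjusted p under 0.05, 2 were higher and 1 lower. Acly changed by 0.11 ± 0.11, and Scd2 changed by 0.40 ± 0.13 and was called with the block (adjusted p = 0.0196). Of 24 ribosome biogenesis genes 12 rose (2 held) and 0 fell by limma, 0 at an unadjusted p under 0.05 and 0 under the block, with a median of 0.30. Ddx21 and Gnl3 rose by 0.73 ± 0.08 and 0.53 ± 0.07, and Npm1 and Nop56 changed by 0.08 ± 0.07 and 0.17 ± 0.08 and were not called. Of 81 ribosomal protein genes 1 was called, Rpl39l, named because the count is small, with a change of 0.59 ± 0.14 (0.0339) that was lost without untreated replicate 1 (0.119), 8 h replicate 1 (0.0875) or 8 h replicate 2 (0.156). Glycolysis genes rose in 13.6% and fell in 9.09% of tested members, and 26.3% of stress genes rose. Of tested genes with a symbol 12.8% rose and 14.5% fell. Of 22 glycolysis and hypoxia genes 3 rose (1 held) and 2 fell (0 held), or 4 and 6 with the block. Pfkp rose by 0.83 ± 0.10, while Aldoa and Ldha changed by 0.03 ± 0.06 and 0.07 ± 0.07 and were not called. Of 19 genes of amino acid stress and the unfolded protein response 5 rose (1 held) and 0 fell by limma, with 1 lower under the block and 2 lower at an unadjusted p under 0.05. Xbp1, the held rise, went from 4.13 and 4.04 to 5.46 and 5.34, and was the 1 gene called of 7 oestrogen receptor targets tested. Atf4 and Asns changed by 0.16 ± 0.10 and 0.09 ± 0.09 and were not called.

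Regulators of the cell cycle and of cell death changed in both directions. Of 20 cyclins, CDKs and inhibitors 3 rose, all held, and 4 fell (2 held), or 3 and 6 with the replicate block. Without the block the shares were 15% and 20%, against 12.8% and 14.5% of tested genes with a symbol. Ccnd2 went from 0.72 and 0.46 to 2.54 and 2.07 (1.72 ± 0.21, limma adjusted p = 0.00425), Cdk6 rose by 1.13 ± 0.17 and Ccne1 by 0.90 ± 0.12. Cdkn1b, which encodes the inhibitor p27, fell by 1.23 ± 0.18 and E2f1 by 0.97 ± 0.11, and Cdk4 and Ccnd3 changed by 0.10 ± 0.07 and 0.21 ± 0.14 and were not called. Of 20 p53 targets and apoptosis regulators 5 rose, all held, and 6 fell (3 held). BH3-only genes, which promote apoptosis, differed in direction. Bcl2l11, which encodes BIM, went from -2.24 and -1.95 to 0.27 and 0.57, a rise of 2.52 ± 0.23, and Pmaip1, which encodes NOXA, rose by 2.19 ± 0.24. Bmf fell from 1.41 and 1.53 to -0.28 and -0.04, by 1.63 ± 0.10. Bcl2l1, which encodes the survival protein BCL-XL, rose by 0.95 ± 0.08, and Gadd45a by 1.78 ± 0.15. The p53 targets Sesn1 and Phlda3 fell by 1.06 ± 0.09 and 0.90 ± 0.11, and Bax changed by -0.05 ± 0.11 and was not called. Morrbid, a long noncoding RNA whose gene lies beside Bcl2l11 on chromosome 2 with 1 annotated gene between them, was at least 8.07-fold higher at 8 h, with neither untreated array well above background.

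Among named genes above background on all 4 arrays, the largest held rises besides Cdx2 and Snai3 included secreted, membrane and nuclear proteins. Npy, a neuropeptide, went from -3.99 and -3.71 to 1.19 and 0.93 (4.91 ± 0.18, limma adjusted p = 0.000206), and Vgf, a neuropeptide precursor, from -2.13 and -1.42 to 2.19 and 3.20 (4.47 ± 0.63). The homeobox gene Gsx1 rose by 4.49 ± 0.49, Hopx, an unusual homeodomain protein that does not bind DNA, by 4.35 ± 0.19, and the corepressor Skor1 by 4.38 ± 0.46. Ubash3b, a phosphatase that lowers tyrosine kinase signalling, rose by 4.46 ± 0.26, Efr3b, which anchors a lipid kinase at the plasma membrane, by 4.45 ± 0.36 and the adhesion molecule Esam by 4.38 ± 0.14. Groups did not overlap for any of these genes, which was a condition of their choice. The largest held falls besides Lefty1 and Spic were of Neurog3, a factor of endocrine progenitors, from 2.56 and 2.94 to -1.44 and -1.02 (-3.98 ± 0.22), and of Dio3, which inactivates thyroid hormone, from -0.26 and -0.02 to -4.27 and -3.85 (-3.92 ± 0.17). The changes were -3.59 ± 0.16 for Trim47, -3.33 ± 0.22 for the sulfotransferase Chst8, -3.32 ± 0.40 for the homeobox gene Tlx2 and -3.32 ± 0.31 for Syt13, a synaptotagmin. Cidea, a lipid droplet protein, fell by 3.29 ± 0.25 and Dkk3, of the Dickkopf family, by 3.09 ± 0.34.

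Other genes were not well above background in the dimmer group, so their changes are bounds. On neither untreated array well above background, and at least so many times higher at 8 h, were the glutamate receptor Grm6 (99.8-fold), the keratin Krt23 (32.8-fold), the lysyl oxidase Loxl4 (22.0-fold), Nol4 (22.0-fold), the receptor Gpr142 (10.5-fold) and the collagen Col6a5 (10.3-fold). On neither array at 8 h well above background, and at least so many times lower there, were Hoxb13 (8.35-fold), Pdzph1 (8.22-fold), Rassf4 (4.77-fold) and Galnt9 (4.71-fold). Pramel6, at least 4.68-fold lower, has close relatives whose transcripts its probe may also bind. The same limit holds for the kallikreins next to Klk1, which are near-identical in sequence. All 9 tested Klk1 and Klk1b genes fell and 7 held, with held changes from -2.74 to -1.33, and their probes cannot be counted as separate genes. Of 7 other kallikrein genes tested 3 rose, of which 1 held, and limma called 0 lower, with 1 at an unadjusted p under 0.05.

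Families formed from gene symbols showed calls in both directions. Of 269 tested solute carriers 50 rose (22 held) and 39 fell (17 held), or 64 and 65 with the replicate block. Without the block that is 18.6% and 14.5%, against 12.8% and 14.5% of tested genes with a symbol. Slc35d3, Slc46a3 and the sulfate transporter Slc26a2 rose by 3.42 ± 0.37, 2.83 ± 0.30 and 2.56 ± 0.20. The organic anion transporter Slco4c1, the exporter Slc47a1 and the magnesium transporter Slc41a3 changed by -2.43 ± 0.15, -2.30 ± 0.17 and -2.23 ± 0.27. Of 99 tested ion channels and transmitter receptors 10 rose (4 held) and 20 fell (9 held), or 17 and 25 with the block. The shares without the block were 10.1% and 20.2%. The adrenergic receptor Adrb1 rose by 3.92 ± 0.40, from -2.68 and -3.70 to 1.03 and 0.43, and the potassium channel Kcnh8 by 3.53 ± 0.36 (1 of 2 untreated arrays well above background). Kcnj12, the glutamate receptor subunit Grin2c and Kcns3 changed by -2.64 ± 0.34, -2.39 ± 0.22 and -2.05 ± 0.18 (limma, adjusted p = 0.00517, 0.00181 and 0.00161). Of 18 tested Hox genes 7 rose (2 held) and 2 fell, of which Hoxb13 held, or 38.9% and 11.1%, and another 21 were filtered out. Among the rises only Hoxd13 was well above background on both untreated arrays. The other rises passed the filter only through groups given 4OHT, so the share of rises is no measure of the family. Hoxd13 rose by 1.51 ± 0.17. Hoxd1, the other held rise, was well above background on neither untreated array and on 1 of 2 arrays at 8 h, so no size is given for it. Of 343 tested Zfp genes 45 rose (16 held) and 38 fell (12 held), or 59 and 70 with the block. Their shares without the block were 13.1% and 11.1%, against the same 12.8% and 14.5%.

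The share called differed by kind of feature, and so did the signal level, whose part in that difference was not tested. Of 14041 protein-coding genes 27.7% were called, of 333 long noncoding RNAs 17.1% and of 2941 probes for genomic intervals without a gene name 10.4%. Their median levels were 0.74, -2.35 and -2.25. In the dimmest of 4 equal bins by level the shares were 23.7% of coding genes, 13.5% of long noncoding RNAs and 9.16% of intervals, and in the brightest bin 23.5%, 23.8% (of 21) and 10.8%. Among long noncoding RNAs 27 rose (17 held) and 30 fell (10 held). A830052D11Rik was at least 5.42-fold higher at 8 h with neither untreated array well above background. Gm5091, Vax2os, which is antisense to the homeobox gene Vax2, and Gm9895 changed by -2.50 ± 0.16, -2.48 ± 0.14 and -2.30 ± 0.14. Among all features of the brightest bin 754 rose and 317 fell, and among the dimmest 367 rose and 552 fell. That split depended on the scaling, since quantile normalization gave 533 and 507 in the brightest bin and 414 and 371 in the dimmest.

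**Figure D5:**
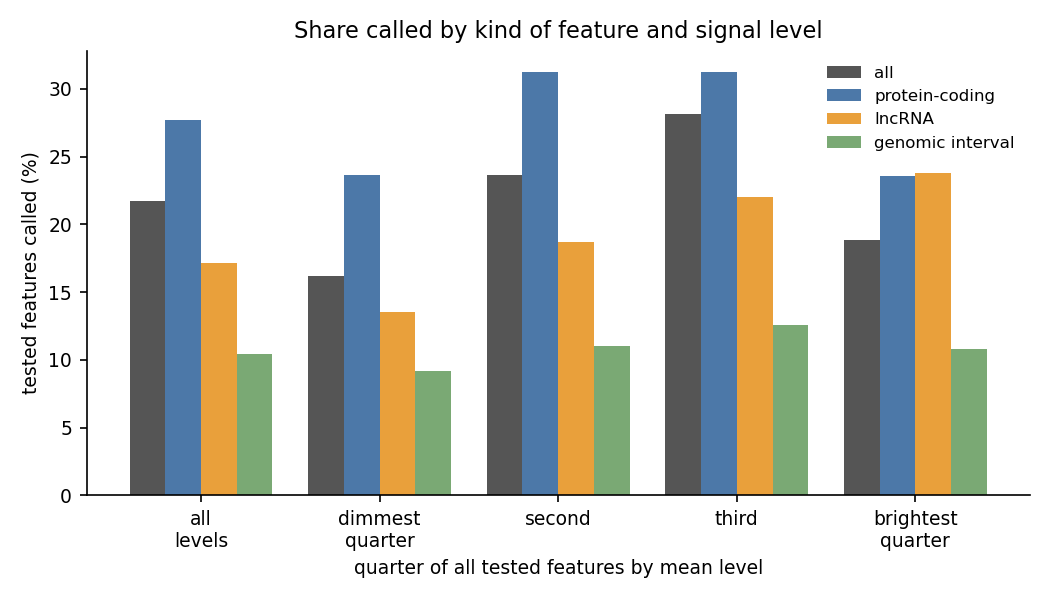
Percentage of tested features called at 8 h (either direction), for all features, protein-coding genes, long noncoding RNAs and genomic intervals, over all levels and within 4 equal bins of all tested features by mean level. Protein-coding genes are at 23.5% to 31.3% in every bin and genomic intervals at 9.16% to 12.6%, and the lncRNA bar of the brightest bin rests on 21 RNAs.

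The group nearest to 8 h was 4OHT for 10 h, again on 2 arrays. Between 10 h and 8 h limma called 0 of 22686 genes and features (0.0%), with 1499 at an unadjusted p under 0.05 and a smallest adjusted p of 0.268. Between 1 and 4 calls appeared when 8 h replicate 1 (2), 8 h replicate 2 (1) or 10 h replicate 1 (4) was left out. A difference between these times was therefore not detectable with these arrays for nearly all genes, and the p-values do not show that the groups are alike.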

How the data were processed

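Total RNA of mouse ES cells was hybridised to 8 single-colour Agilent arrays of design 028005, 2 for each of 4 groups. The processed signal is an intensity that the scanner software, Agilent Feature Extraction 11.0.1.1, had corrected for background but left unscaled across arrays, per the file headers. These deposited files also hold marks of 0 or 1 for spots well above background, saturated or outlying. The labels name Cy5 while the scanner files hold the channel Agilent calls green, which changes no direction. No spot was saturated. The number of arrays, not a read depth, limits the precision. The deposited value table of the series repeats the processed intensity, linear and uncentred, with a largest difference of 0.497%.

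Log2 of the processed signal less the 75th percentile of the array's non-control spots was fitted with limma 3.58.1 in R 4.3.3 (with the data.table package, 1.17.8), over all 8 arrays with a mean per group (4 residual degrees of freedom, prior 1.71), with two-sided moderated tests and Benjamini-Hochberg adjustment at 0.05. Python 3.11.15, numpy 2.4.6, pandas 2.3.3 and matplotlib 3.10.9 were used for the rest. Spots marked as outliers were left out, and spots of a probe were averaged. Probes had to be well above background on both arrays of some group (30329 of 55681 were), and the kept probe of highest mean stood for its gene. 14 genes or features lacked a value on a compared array and were fitted without it. Accessions were matched to symbols in a RefSeq table of GRCm38.p6: 27650 probes (49.7%) had 1 symbol, 0 several and 28031 none. Array coordinates are of build mm9 and are not given. The fits were tested on simulated data.

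Members, gene lists, tests and the naming rule were chosen with earlier results of these data known. The rule named, among held genes, the 10 largest rises and 10 largest falls above background on all 4 arrays, the 8 largest bounds each way, up to 4 each way and 2 uncalled members per list, 17 fixed genes and the 3 largest each way per symbol or accession class. Some of the genes so chosen are not reported here. Classes for which only counts or nothing is printed add no result.

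Replicates 1 and 2, numbered in the labels, are also the slide's rows. Each group lies in its own slide column, so column and group cannot be told apart. In all 6 pairs of groups, same-numbered arrays deviated together from their group means (correlations of 0.287 to 0.356). The numbers may thus pair the samples, but paired cultures and slide row cannot be told apart. Alternatives tried were quantile normalization, median centring, normexp, no filter, the mean of probes, an intensity trend with a robust prior, the compared groups alone, the replicate block, the value table and leaving out each array.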

Additional observations from a re-analysis of the deposited data

How the results depend on the processing

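Counts at 8 h depended on the settings more than the calls of the named genes did. The called genes among these were mostly picked because their calls held, so few could be lost. Over everything tested 1754 of 4931 calls held. Without a filter on dim probes 1146 genes and features rose and 1157 fell, and with only the compared groups in the fit 1281 and 1485. Centring on the array median gave 3038 rises and 1511 falls. Leaving out 1 array gave 1091 to 2007 rises and 1177 to 2261 falls. The replicate block gave 3251 rises and 3994 falls. It added calls for 17 of 274 named genes that were checked singly, each given with its p in the report. It lost 0 and changed no other call among them, and 10 of the 17 were also called under another alternative. Not every gene named in the report was among the 274, and the report gives block calls beyond these 17. The intensity trend added 13 calls, normexp 9, median centring 5, quantile normalization and the mean of probes 2 each, and leaving out 1 array 0 to 3. Quantile normalization, normexp, the mean of probes, the intensity trend and the value table kept both counts within 1.5 times. Between 10 h and 8 h, 0 to 4 genes were called when 1 array was left out and 0 under the other alternatives. Of the 200 checked genes called, 0 changed sign under these alternatives. Without the filter 5 lost the call, with only the compared groups 3, with quantile normalization 2, with median centring 1 and with the mean of probes 1. Leaving out 1 of the 4 compared arrays lost 6 or 7 of these calls. Of 140 counts for lists and classes, 72 moved by over 1.5 times without the filter, 54 with only the compared groups, 45 with the block and 26 with median centring. With 2 arrays a group, small changes could be missed. The lowest signal well above background was 9.58 and 7.18 on the arrays of replicate 1 and 18.2 and 20.0 on those of replicate 2, so dim genes were measured less well in replicate 2.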
